A study of Homo sapiens with 96 samples.

Results

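A549 is a human lung adenocarcinoma cell line. Its splicing was read here for departures from additivity after 2 days of GSK591, which inhibits PRMT5, of MS023, which inhibits type I protein arginine methyltransferases, and of both together (co-treatment). The members are 12 of the 96 samples of the series, in 4 groups of 3 poly(A)-RNA libraries: 1 µM GSK591 for 2 days, 1 µM MS023 for 2 days, co-treatment for 2 days with 1 µM of each, and DMSO for 4 days. The 4-day DMSO libraries are the control that the deposited tables pair with the 2-day inhibitor libraries. DMSO enters the interaction once and inhibitor groups enter 3 times, so a change with time in culture that all 3 inhibitor groups share would enter it too and cannot be told apart from it. Nothing in the labels says that the libraries of a group came from separate cultures, so the tests measure the spread between these libraries, which may be technical.

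PRMT5 makes symmetric dimethylarginine and the type I enzymes, PRMT1 first among them, make the asymmetric form. Both marks are laid on glycine- and arginine-rich stretches of RNA-binding proteins, among them the Sm proteins of the spliceosome for PRMT5 and many hnRNP proteins for the type I enzymes, and loss of one mark can leave substrate for the other. A cassette exon is an exon that the mature RNA either holds or skips. Exon choice depends on how well the spliceosome sees the splice sites and on the SR and hnRNP proteins bound nearby.

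An event was taken where its type and coordinates were the same in all 3 tables, which held for 97878 events: 71990 cassette exons (SE), 14753 pairs of mutually exclusive exons (MXE), 6703 alternative 3′ splice sites (A3SS) and 4432 alternative 5′ splice sites (A5SS). Inclusion is given as Ψ, the percent of transcripts that hold the exon, the longer form or, for MXE, the exon that comes first in transcription. The interaction is co-treatment minus GSK591 minus MS023 plus DMSO. It was tested on the log2 odds of inclusion, where 0 means that the effects add, and it is given in Ψ points (percentage points) beside that. It is called higher or lower than the sum by its sign. Of the events, 82219 had at least 10 reads in every library and were tested. Summed over tested events the libraries held 56582650 to 80317896 counts, in which a read counts once for each event it falls on, so that these sums exceed the number of reads. The median was 186 to 292 reads per event. Pairs of GSK591 libraries differed most, with a chi-square per degree of freedom of 2.46 to 3.04 against 1.95 to 2.40 in the other groups, and the first GSK591 library had the highest sum and, with 199, the lowest median of its group. Of the 13 epithelial and A549 markers, 9 were seen at that depth, EPCAM, CDH1, KRT7, KRT8 and KRT18 among them, and of 10 blood, endothelial and fibroblast markers 0 were seen. Of 3 mesenchymal markers, VIM and FN1 were seen. A gene could be seen only through a listed splicing event. Most of the 10 markers, and KRT19, ESRP1 and ESRP2, had no event listed, which does not show that they were not expressed.

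For most events the data showed no departure from the sum. Of the 82219 tested events, 286 (0.348%) in 224 genes were called at an adjusted p under 0.05. Co-treatment was higher than the sum in 153 (0.186%) and lower in 133 (0.162%). By type, 223 of 59715 SE (0.373%), 17 of 13499 MXE (0.126%), 22 of 5440 A3SS (0.404%) and 24 of 3565 A5SS (0.673%) were called. The test was not equally strict between types. An MXE of BCAT2 with 1.07 ± 0.24 in log2 odds had an adjusted p of 0.0484. An SE of ANXA2 with -1.13 ± 0.30, fewer SEs from 0, had 0.0492. The lower share of MXE is therefore no result about that type. An unadjusted p under 0.05 was found in 6255 events (7.61%). Called events were deeply covered, with a median of 731 reads per library against 234 over all tested events, and the median SE of the interaction was 0.278 among them against 1.63 over all on the log2 odds scale. Departures in thinly covered exons were often not detectable at this depth. The median size of a called interaction was 10.1 Ψ points. In genes with more than 1 called event, which held 106 of the 286, events often shared an exon and so the same reads.

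The count depended on how the spread between libraries was modelled. For SE, A3SS and A5SS the moderated dispersion came close to 1 value for all events of the type. Of the called events, 68 had a dispersion of their own at least 2 times the one used. In a stricter fit, chosen after the data were seen, each event kept its own dispersion where that was larger, and 130 of the 286 remained called. The limma test of log2 odds with equal weights called 0 events, with 5063 at an unadjusted p under 0.05. With weights for depth it called 65, of which 61 were among the 286. Below, the result of the stricter fit is given for each event whose 2-day call it ends. Effects of single inhibitors, alone or on top of the other, and of co-treatment against DMSO were tested with the moderated dispersion only. Their counts and adjusted p-values thus do not follow the spread of each event.

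Among called cassette exons with at least 20 reads in every library, taken 1 per gene, those furthest below the sum in Ψ points were in MSI2, SEMA4F, CHEK2, LINC01021, HCG18 and DONSON. Exons with fewer reads lay further below in AP000525.9 and at another exon of SEMA4F. For the 6 exons described here, each co-treatment library was below each of the other 9 libraries. MSI2 encodes Musashi-2, an RNA-binding protein that controls translation. Ψ of its 73-nt exon (chr17:55754348-55754420 of hg19) was 91.1, 86.2 and 93.1% in DMSO, 75.6, 81.4 and 76.8% in GSK591, 84.1, 82 and 85.3% in MS023, and 30.6, 28.9 and 35.5% in co-treatment. Each inhibitor alone thus left the exon mostly included, and with both it was mostly skipped. The interaction was -40 ± 3.49 Ψ points (SE, n = 3 libraries per group), or -2.20 ± 0.46 on the log2 odds scale (adjusted p = 0.00144). Without the second DMSO library the adjusted p was 0.174. MS023 alone moved the exon by -6.31 points (adjusted p = 0.285), whereas on top of GSK591 it moved it by -46.3 points (adjusted p = 1.85e-20).

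SEMA4F encodes a semaphorin, a membrane protein of the axon guidance family. Its 152-nt coding exon had a Ψ of 76.4, 88.4 and 73% in DMSO, 96.5, 93.4 and 91.9% in GSK591, 85, 86.8 and 82.8% in MS023, and 49.3, 49.2 and 59.5% in co-treatment. GSK591 alone raised inclusion by 14.7 points (adjusted p = 0.0492), whereas on top of MS023 its effect was -32.2 points (adjusted p = 2.47e-06). The interaction was -46.9 ± 6.05 points and -4.11 ± 0.85 in log2 odds (adjusted p = 4.82e-05).

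CHEK2 encodes the checkpoint kinase CHK2 of the DNA damage response. Its 62-nt exon, whose length is not a multiple of 3, had a Ψ of 77.2, 77.5 and 72.9% in DMSO, 87, 75.4 and 85.1% in GSK591, 71.3, 76.8 and 82.4% in MS023, and 53.9, 46.1 and 38.1% in co-treatment. The first 3 groups overlapped, and neither inhibitor alone passed the test (adjusted p = 0.427 for GSK591 and 0.962 for MS023). The interaction was -37.4 ± 6.8 points and -2.54 ± 0.58 in log2 odds (adjusted p = 0.0064, and 0.0528 without the third DMSO library). DONSON, a protein of the replication fork, had an 82-nt exon at 70.1, 90.2 and 69.4% in DMSO, 80.2, 61.3 and 61.4% in GSK591, 67.2, 59.8 and 74.5% in MS023, and 24.1, 17 and 22.3% in co-treatment. The co-treatment libraries stood well apart, but the other groups were spread widely. Its interaction of -37.1 ± 10.4 points (adjusted p = 0.0319) was not called in the stricter fit (adjusted p = 0.32), and it kept its call in 6 of 12 fits that each left out 1 library (highest adjusted p 0.272, without the third DMSO library).

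The other pair are long noncoding RNAs. LINC01021, a p53-induced RNA, held its 90-nt exon in 11.8, 21.8 and 11.1% of transcripts in DMSO, 24.9, 22.1 and 19.1% in GSK591, 32.1, 29 and 36.2% in MS023, and 2.76, 1.61 and 3.18% in co-treatment. Both single-inhibitor means lay above DMSO, though neither passed the test, and the co-treatment mean lay below it. The interaction was -37.1 ± 4.41 points (adjusted p = 0.00551), with as few as 20 reads in 1 library. The 214-nt exon of HCG18 had an interaction of -49.4 ± 11.4 points (adjusted p = 0.0136), the lowest of the 6, and the widest spread, since its GSK591 libraries ran from 70.2 to 95.2%. It kept its call in 8 of 12 fits without 1 library (highest adjusted p 0.189, without the first GSK591 library).

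The coding exons of SEMA4F, CHEK2 and DONSON are shown since the interaction is read on them. Each is given 5′ to 3′ from GRCh37, with the exon in capitals and 20 intron bases before and 10 after it in lower case. All 3 begin after an ag and end before a gt.
SEMA4F (chr2:74883641-74883822, plus strand): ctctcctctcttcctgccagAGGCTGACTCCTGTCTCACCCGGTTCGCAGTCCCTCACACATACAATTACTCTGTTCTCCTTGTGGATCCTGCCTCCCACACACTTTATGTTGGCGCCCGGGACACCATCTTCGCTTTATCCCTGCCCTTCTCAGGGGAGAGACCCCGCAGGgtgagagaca
CHEK2 (chr22:29099483-29099574, minus strand): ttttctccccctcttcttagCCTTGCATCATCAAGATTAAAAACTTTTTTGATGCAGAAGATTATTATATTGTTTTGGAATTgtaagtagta
DONSON (chr21:34954461-34954572, minus strand): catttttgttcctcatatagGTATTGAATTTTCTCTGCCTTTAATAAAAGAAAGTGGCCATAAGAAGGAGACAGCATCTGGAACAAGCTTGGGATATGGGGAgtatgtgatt

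**Figure D1:**
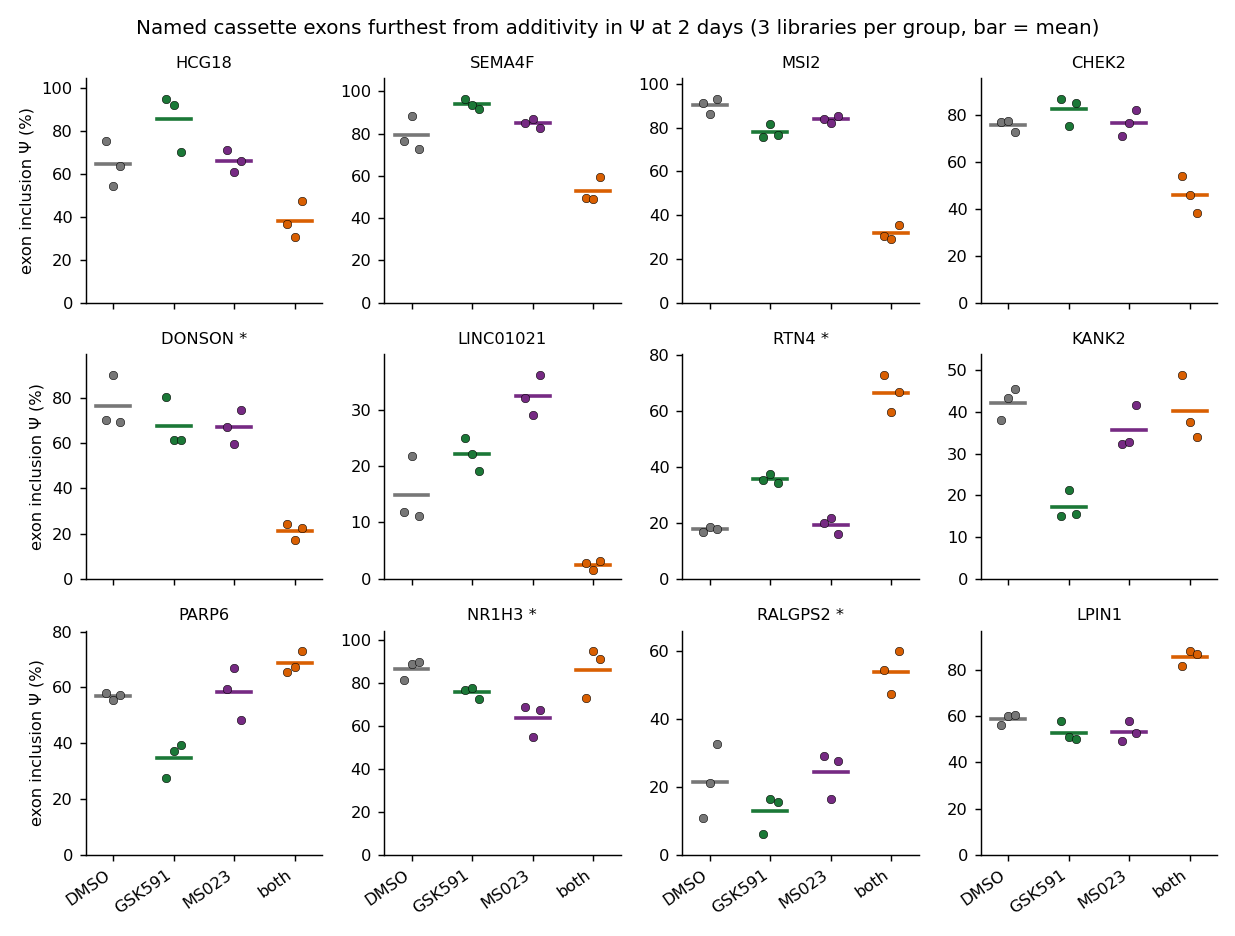
Ψ (%, linear axis from 0, scaled per panel) of the 12 cassette exons furthest from the sum in Ψ points, with at least 20 reads in every library and 1 per gene, per library (points, 3 per group) with the group mean (bar), for DMSO (4 days), GSK591, MS023 and both inhibitors (2 days). An asterisk marks exons not called in the stricter fit. In MSI2 the co-treatment libraries lie between 28.9 and 35.5% and the other 9 between 75.6 and 93.1%, while in KANK2 and PARP6 it is the GSK591 libraries that stand apart.

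By the same rule, the cassette exons furthest above the sum were in LPIN1, RALGPS2, NR1H3, PARP6, KANK2 and RTN4, and exons with fewer reads lay further above in SLC35B1 and KLC1. LPIN1 encodes lipin-1, a phosphatidate phosphatase of lipid synthesis. Its 108-nt exon had a Ψ of 55.9, 59.8 and 60.6% in DMSO, 57.7, 50.8 and 50.1% in GSK591, 49.1, 57.8 and 52.5% in MS023, and 81.8, 88.2 and 86.8% in co-treatment. Each inhibitor alone gave a mean slightly below DMSO that did not pass the test, and both together raised inclusion well above every other library. The interaction was 38.4 ± 4.25 points and 2.81 ± 0.32 in log2 odds (adjusted p = 1.3e-15), and in the 12 fits that each left out 1 library the adjusted p was 1.46e-11 at most.

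RALGPS2, a guanine nucleotide exchange factor for Ral GTPases, had a 78-nt exon for which neither inhibitor alone passed the test. Its Ψ was 10.9, 21.2 and 32.6% in DMSO, 6.16, 16.6 and 15.7% in GSK591, 29.2, 16.5 and 27.6% in MS023, and 54.5, 47.3 and 60% in co-treatment. The interaction was 38.3 ± 8.93 points (adjusted p = 0.000476). The DMSO libraries differed widely, and the stricter fit did not call it (adjusted p = 0.112). RTN4 encodes reticulon-4, and its 2400-nt exon is the one that sets Nogo-A, the long isoform that inhibits neurite growth, apart from the short ones. Ψ of this exon was 16.8, 18.6 and 17.7% in DMSO, 35.4, 37.4 and 34.3% in GSK591, 19.8, 21.7 and 15.9% in MS023, and 72.9, 59.5 and 66.6% in co-treatment. GSK591 alone raised it by 18 points and MS023 alone did not pass the test (adjusted p = 0.856), while MS023 on top of GSK591 raised it by 30.6 points (adjusted p = 1.12e-05). The interaction of 29.2 ± 4.34 points passed at an adjusted p of 0.0411, with 0.0733 in the stricter fit, and it kept its call in 3 of 12 fits without 1 library (highest adjusted p 0.203, without the first co-treatment library).

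In PARP6 and KANK2, GSK591 alone lowered inclusion and did not lower it on top of MS023. PARP6 is a member of the ADP-ribosyltransferase family. Its 110-nt exon stood at 57.9, 55.6 and 57.5% in DMSO, 27.4, 37.1 and 39.5% in GSK591, 59.5, 67.2 and 48.2% in MS023, and 65.6, 67.4 and 73.1% in co-treatment. The effect of GSK591 alone was thus -22.3 points (adjusted p = 1.06e-10), and on top of MS023 it was 10.4 points (adjusted p = 0.0458). The interaction was 32.8 ± 7.03 points and 1.95 ± 0.29 in log2 odds (adjusted p = 3.44e-08). KANK2, an adaptor between talin and microtubules, had a 178-nt exon in the untranslated part of its RNA at 38, 43.3 and 45.5% in DMSO, 15, 21.4 and 15.4% in GSK591, 32.4, 32.8 and 41.8% in MS023, and 48.9, 37.6 and 34% in co-treatment. Only the GSK591 libraries lay below the rest, and the interaction was 29.5 ± 6.22 points (adjusted p = 0.00966). It lost its call without the third GSK591 library (adjusted p = 0.0792) and without the first co-treatment library (adjusted p = 0.071).

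NR1H3 encodes the oxysterol receptor LXRα. Its 180-nt exon had a mean Ψ of 86.6 ± 4.58% (SD) in DMSO, 75.6 ± 2.64% in GSK591, 63.7 ± 7.84% in MS023 and 86.2 ± 11.8% in co-treatment. MS023 alone lowered it, and the co-treatment mean was close to that of DMSO but spread from 72.8 to 94.9%. The interaction of 33.5 ± 8.72 points (adjusted p = 0.0195) was not called in the stricter fit (adjusted p = 0.107) or in 5 of 12 fits without 1 library (highest adjusted p 0.148, without the second co-treatment library). The A3SS event that starts at the same acceptor shares its reads. It had an interaction of 46.9 ± 9.62 points (adjusted p = 0.00535, 0.0112 in the stricter fit, and 0.0893 without the second co-treatment library).

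Of the exons above the sum, those of LPIN1, RALGPS2 and PARP6 are printed in the same way. LPIN1 and RALGPS2 have exons that are a multiple of 3 long, and PARP6 has not.
LPIN1 (chr2:11916192-11916329, plus strand): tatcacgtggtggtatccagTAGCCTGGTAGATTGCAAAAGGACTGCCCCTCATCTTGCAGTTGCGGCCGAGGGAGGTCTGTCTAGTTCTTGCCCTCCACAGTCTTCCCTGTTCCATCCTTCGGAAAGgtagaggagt
RALGPS2 (chr1:178861345-178861452, plus strand): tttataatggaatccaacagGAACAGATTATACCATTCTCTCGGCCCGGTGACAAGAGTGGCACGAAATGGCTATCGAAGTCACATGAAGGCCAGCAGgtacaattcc
PARP6 (chr15:72543176-72543315, minus strand): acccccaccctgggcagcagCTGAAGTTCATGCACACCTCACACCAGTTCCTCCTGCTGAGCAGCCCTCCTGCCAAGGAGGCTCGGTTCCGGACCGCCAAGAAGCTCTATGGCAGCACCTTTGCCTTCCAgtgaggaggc

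How the inhibitors acted alone and with the other was read from pairs of comparisons that share no library. MS023 alone (MS023 minus DMSO) was called in 1958 of all tested events (2.38%) and MS023 on top of GSK591 (co-treatment minus GSK591) in 3332 (4.05%). GSK591 alone was called in 6235 (7.58%) and GSK591 on top of MS023 in 8540 (10.4%). Co-treatment against DMSO was called in 10781 (13.1%). Among the 286 non-additive events, MS023 was called only on top of GSK591 in 149, only alone in 61, in both with the same direction in 48, and in both with opposite direction in 14. GSK591 was called only on top of MS023 in 134, only alone in 48, in both with the same direction in 86, and in both with opposite direction in 18. These counts describe what the interaction consists of and are no further test, since the interaction is the difference between the pair.

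The most common form was a co-treatment level outside the other groups. In 224 of the 286 (78.3%), the co-treatment mean was the highest or the lowest of the 4 groups, on the side of the interaction, as in 39.8% of all tested events. In 53 it lay between the others, as in 50% of all tested. Selection on the interaction itself favours the first form. All 3 co-treatment libraries were above or below all the other 9 in 167 of the 286, and in 5.28% of all tested events. Neither inhibitor alone was called, but co-treatment was, in 73 (25.5%, against 7.07% of all tested). The sign of the interaction was opposite in Ψ points and in log2 odds in 5 of the called events, none of which is named.

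**Figure D2:**
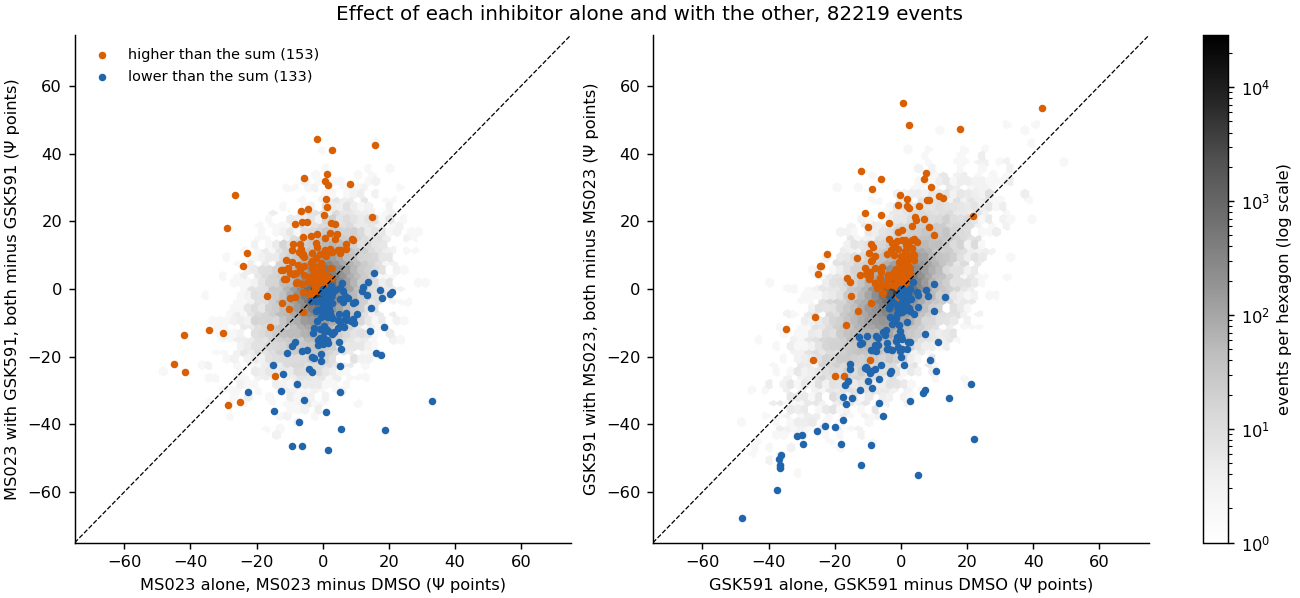
ΔΨ (points) of MS023 alone against MS023 with GSK591 (left) and of GSK591 alone against GSK591 with MS023 (right), for all 82219 tested events (grey hexagons, log colour scale) and for the 153 events higher (orange) and 133 lower (blue) than the sum. On the dashed diagonal the effects add on the Ψ scale. On the left, called events spread vertically around 0 are those where MS023 alone moved Ψ little and MS023 with GSK591 moved it up or down. Of the 286 called events, MS023 was called only on top of GSK591 in 149 and only alone in 61.

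Among the genes of splicing itself, the hnRNP list held the most called events. The hnRNP proteins bind nascent RNA, often favour exon skipping, and are substrates of PRMT1. Of 332 tested events in 24 of its genes, 8 were called (2.41%, against 0.348% of all tested events), 1 higher and 7 lower than the sum, in HNRNPA2B1, HNRNPH1, HNRNPK, HNRNPM and PCBP2. The median interaction of the list was -0.155 on the log2 odds scale, against -0.071 over all tested events. In the stricter fit 6 of the 8 were called, and with limma weighted for depth 3. The 8 are not independent, since 3 lie in HNRNPH1 and a pair in PCBP2. Called events had more reads than most, and neither this share nor those of the lists below were compared at equal depth. A higher share is thus not shown to be a property of the genes.

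PCBP2 binds poly(C) RNA. Its 39-nt exon is measured by a pair of events that differ in the neighbouring exon, and in the deeper one Ψ was 66.3, 62 and 62.2% in DMSO, 26.8, 27 and 27.9% in GSK591, 64, 63.8 and 65.5% in MS023, and 16.6, 16.3 and 13.7% in co-treatment. GSK591 lowered inclusion strongly. MS023 alone did not pass the test (0.933 points, adjusted p = 0.703), and on top of GSK591 it moved Ψ by -11.7 points (adjusted p = 2.45e-49). The interaction was -12.7 ± 1.78 points and -1.08 ± 0.09 in log2 odds (adjusted p = 1.25e-31). The event with fewer reads gave -1.26 ± 0.24 in log2 odds (adjusted p = 0.000284).

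HNRNPA2B1 showed another arrangement. Its 36-nt exon is the one that the B1 isoform holds and A2 lacks. Ψ was 23.6, 23.9 and 22.2% in DMSO, 26.8, 24.4 and 24.6% in GSK591, 37.8, 36.4 and 36.8% in MS023, and 27.4, 27.6 and 27.1% in co-treatment. MS023 alone raised the exon by 13.8 points (adjusted p = 1.36e-153), above all other libraries, while on top of GSK591 it raised it by 2.15 points (adjusted p = 0.000911). That smaller step stands beside SDs of 1.32 points in GSK591 and 0.25 points in co-treatment. The interaction was -11.6 ± 1.01 points and -0.80 ± 0.05 in log2 odds (adjusted p = 6.49e-51). The short exons of these hnRNP genes, and that of MAP3K7 described below, are printed as above.
PCBP2 (chr12:53861569-53861637, plus strand): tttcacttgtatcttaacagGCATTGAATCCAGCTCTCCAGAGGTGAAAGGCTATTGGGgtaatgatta
HNRNPA2B1 (chr7:26237441-26237506, minus strand): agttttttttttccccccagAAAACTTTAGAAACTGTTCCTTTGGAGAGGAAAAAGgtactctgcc
MAP3K7 (chr6:91254261-91254371, minus strand): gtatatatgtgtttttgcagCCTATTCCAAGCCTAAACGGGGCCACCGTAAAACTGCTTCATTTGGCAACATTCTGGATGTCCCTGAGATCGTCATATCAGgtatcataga

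Of the Sm and snRNP genes, 5 of 400 tested events were called (1.25%, against 0.348% of all tested events), 2 higher and 3 lower than the sum, and the list's median was -0.061. All 3 that were lower lay in SNRNP70, the U1 snRNP protein U1-70K, and share reads. Its 1474-nt exon, which the annotation places mostly outside coding sequence, was rarely included, at 4.47, 4.61 and 4.19% in DMSO, 4.77, 6.32 and 4.91% in GSK591, 7.31, 7.6 and 6.23% in MS023, and 3.28, 3.58 and 2.73% in co-treatment. Each inhibitor alone raised inclusion and co-treatment lay below every other library. The interaction was -4.76 ± 0.704 points and -1.45 ± 0.07 in log2 odds (adjusted p = 3.34e-81, and 1.76e-08 in the stricter fit). With limma's robust moderation, which moderates outlying dispersions less, the adjusted p was 0.00427, and with limma weighted for depth 0.00393. The size of this p-value thus rests on the dispersion used. The 2 that were higher, an A3SS of SNRPB and an SE of SNRNP40, had interactions of 3.79 ± 1.53 and 6.84 ± 2.14 points (adjusted p = 0.000798 and 6.56e-05). Neither was called in the stricter fit (adjusted p = 0.377 and 0.16), and SNRPB was not called without the first GSK591 library (adjusted p = 0.228).

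Of the SR protein genes, 3 of 174 events were called (1.72%, against 0.348% of all tested events), 2 higher and 1 lower than the sum, with a list median of -0.028, and 0 in the stricter fit. SRRM2, a scaffold of nuclear speckles, included its 95-nt exon at 12.9, 12 and 11.4% in DMSO, 11.4, 19.6 and 17.2% in GSK591, 12.7, 13 and 12.5% in MS023, and 28.8, 29.9 and 23.8% in co-treatment. The co-treatment libraries lay above the others, and the GSK591 libraries were spread (adjusted p = 0.000451, 0.367 in the stricter fit, and 0.123 without the first GSK591 library). SRSF3 holds an exon with an early stop codon by which it limits its own level. Ψ of that exon was low, at 1.79 ± 0.10% in DMSO, 1.42 ± 0.30% in GSK591, 2.04 ± 0.27% in MS023 and 2.63 ± 0.12% in co-treatment (SD, n = 3 libraries each). Its interaction was 0.959 ± 0.246 points (adjusted p = 0.000454, 0.151 in the stricter fit, and 0.139 without the first GSK591 library). The called A3SS of SRSF5 had an interaction of -3.98 ± 1.75 points (adjusted p = 0.0298, 0.817 in the stricter fit, and 0.628 without the first GSK591 library). Of the other splicing regulators, 2 of 459 events were called, a share (0.436%) near the 0.348% of all tested events, with a median of -0.064. They were 1 higher in RBM4 and 1 lower in U2AF2, the large subunit of the factor that binds the polypyrimidine tract. RBM4 stood at 70.2 ± 1.71% in DMSO, 80.2 ± 2.88% in GSK591, 79.2 ± 2.45% in MS023 and 95 ± 1.61% in co-treatment. Neither was called in the stricter fit (adjusted p = 0.0695 for RBM4 and 0.14 for U2AF2), and each kept its call in 5 of 12 fits without 1 library (highest adjusted p 0.232 without the second co-treatment library for RBM4, and 0.109 without the first GSK591 library for U2AF2).

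Genes known for isoform switches between epithelial and mesenchymal cells held 7 called events of 541 (1.29%, against 0.348% of all tested events), 4 higher and 3 lower, in CD44, MAP3K7, MYL6, RALGPS2 and RPS24, with a median of -0.024. In the stricter fit 3 were called. RPS24 encodes a ribosomal protein, and its 22-nt exon lies near the end of the RNA. Ψ was 17.2, 18.4 and 19.9% in DMSO, 7.98, 7.6 and 6.98% in GSK591, 28.9, 30.5 and 31.6% in MS023, and 6.61, 7.03 and 7.15% in co-treatment. MS023 alone raised the exon by 11.8 points (adjusted p = 2.07e-55) and on top of GSK591 its effect was -0.587 points (adjusted p = 0.498), and the co-treatment libraries lay among or just below those of GSK591. The interaction was -12.4 ± 1.15 points and -1.10 ± 0.11 in log2 odds (adjusted p = 3.24e-18). MAP3K7, the kinase TAK1, has an 81-nt exon that stood at 11.9, 20.2 and 14.9% in DMSO, 2.6, 3.55 and 2.45% in GSK591, 25.4, 31.8 and 35.1% in MS023, and 26.1, 21.5 and 24.7% in co-treatment. The inhibitors moved this exon in opposite directions when alone, and together left it near the level of MS023. The interaction was 2.20 ± 0.53 in log2 odds (adjusted p = 0.00341, and 0.0603 without the second DMSO library). In Ψ points it was 6.19 ± 3.99, a smaller multiple of its SE. The SE in Ψ points comes from this event's own group SDs, and that in log2 odds from the moderated dispersion. Why the scales differ was not tested.

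Genes of DNA repair held 2 called events of 952, a share (0.21%) below the 0.348% of all tested events, in CHEK2 and EXO1, both lower, with a median of -0.123. EXO1, an exonuclease of mismatch and break repair, had a 120-nt exon at 87.4 ± 3.55% in DMSO, 86 ± 3.38% in GSK591, 94.3 ± 1.89% in MS023 and 79 ± 2.38% in co-treatment. Its interaction was -13.9 ± 3.33 points (adjusted p = 0.0138), and it kept its call in 8 of 12 fits without 1 library (highest adjusted p 0.18, without the second DMSO library). Genes of mitosis held 5 of 879 (0.569%, against 0.348% of all tested events), 4 higher and 1 lower, in ANAPC11, CENPK, KIF23 and SPDL1, with a median of -0.24, and 2 in the stricter fit. KIF23 encodes a kinesin of the midbody, and its 312-nt exon sets its long isoform apart. Ψ was 12.9, 14.2 and 13.8% in DMSO, 11.5, 14.4 and 15.6% in GSK591, 15.6, 16.4 and 17.4% in MS023, and 26.7, 24.3 and 23.8% in co-treatment. Each inhibitor alone gave a level near that of DMSO, and both together a level above every other library (8.23 ± 1.66 points, adjusted p = 0.00327, and 0.108 without the first GSK591 library). In SPDL1, which recruits dynein to kinetochores, each inhibitor alone lowered a 77-nt exon from 12.1 ± 1.88% to 4.12 ± 1.4% and 4.32 ± 1.29%, and co-treatment stood at 6.06 ± 3.06%. Its interaction was 9.69 ± 2.35 points (adjusted p = 0.00164, 0.0804 in the stricter fit, and 0.153 without the second co-treatment library). CENPK, a kinetochore protein, had an interaction of -18 ± 3.94 points (adjusted p = 0.046, and 0.0795 in the stricter fit), called in 2 of 12 fits without 1 library (highest adjusted p 0.203, without the first co-treatment library).

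Genes of apoptosis and p53 held 2 called events of 237 (0.844%, against 0.348% of all tested events), both lower and both in BIRC5, survivin, with a median of -0.271, and 1 in the stricter fit. They share the acceptor of the 69-nt exon of the 2B isoform. That SE stood at 10.3 ± 1.24% in DMSO, 13.4 ± 0.98% in GSK591, 11.3 ± 2.56% in MS023 and 8.31 ± 1.41% in co-treatment (-6.12 ± 1.92 points, adjusted p = 0.0415, and 0.397 in the stricter fit). The A3SS had an interaction of -2.08 ± 0.454 points (adjusted p = 0.0221). Without 1 library the SE kept its call in 4 and the A3SS in 7 of 12 fits (highest adjusted p 0.35 and 0.185, both without the third MS023 library). In 4 lists 0 events were called by the quasi-binomial test: the arginine methyltransferases and their partners (138 tested, median -0.131), mRNA export (277, median -0.070), nonsense-mediated decay (208, median -0.212), and histone methyltransferases and demethylases (441, median -0.143). At an unadjusted p under 0.05 they held 9, 26, 14 and 27 events in that order. Of all tested events, 7.61% had such a p. With 0.348% of all tested events called, few calls would fall in lists of this size, so 0 is no result about them. The stricter fit and the weighted limma test called 0 as well. Adjustment within each event type called 2 for mRNA export, and limma on Ψ called 1 for nonsense-mediated decay. Fits without 1 library called up to 2 for mRNA export and up to 1 for the histone enzymes.

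Alternative splice sites departed from the sum in both directions. FXYD5 encodes dysadherin, a regulator of the sodium pump. In its A5SS event, the longer form made up 79.5, 77.2 and 75% in DMSO, 41.3, 41.9 and 39.1% in GSK591, 81.3, 82.4 and 82.4% in MS023, and 30, 28.5 and 28.9% in co-treatment. GSK591 lowered the share of the longer form, and MS023 alone did not pass the test. On top of GSK591, MS023 moved that share by a further -11.6 points (adjusted p = 3.22e-09). The interaction was -16.4 ± 1.68 points and -1.18 ± 0.20 in log2 odds (adjusted p = 9.3e-06). Cassette exon events of FXYD5, named after their values were seen, were called as well. Their interactions were -1.18 ± 0.19 and -1.18 ± 0.22 in log2 odds (adjusted p = 7.75e-07 and 6.7e-05). These and the A5SS event may share reads, so splice site choice and exon skipping are not told apart here. PARD3, a cell polarity protein, had the same arrangement (61.2, 43.8, 61.4 and 29.5% on average, -14.4 ± 4.16 points, adjusted p = 0.00953), but was not called in the stricter fit (adjusted p = 0.101) or in 3 of 12 fits without 1 library (highest adjusted p 0.155, without the second DMSO library).

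ENSA, an inhibitor of the phosphatase PP2A in mitosis, had the highest A5SS interaction in Ψ points among the named events. Its longer form made up 33.8, 29.5 and 27.3% in DMSO, 41.4, 38.5 and 33.8% in GSK591, 42.5, 46.6 and 49% in MS023, and 74.4, 83 and 83.9% in co-treatment. MS023 alone raised it by 15.8 points (adjusted p = 0.00249), GSK591 alone did not pass the test (adjusted p = 0.191), and the co-treatment libraries lay far above all others (26.7 ± 4.62 points, adjusted p = 0.01). It kept its call in 9 of 12 fits without 1 library (highest adjusted p 0.113, without the second co-treatment library). In HUWE1, a large ubiquitin ligase, each inhibitor alone favoured the shorter form and co-treatment no more than each: the longer form stood at 60.3, 54.4 and 57.8% in DMSO, 39, 45.8 and 38.6% in GSK591, 49.1, 43.1 and 46.8% in MS023, and 47.4, 51.2 and 50.2% in co-treatment. Here the 45 nt between the sites keep the reading frame, and the interaction was 19.6 ± 3.55 points (adjusted p = 0.000157). SSBP4 had an interaction of 21.3 ± 4.97 points (adjusted p = 0.0115), called in 7 of 12 fits without 1 library (highest adjusted p 0.112, without the third DMSO library).

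Of the A3SS events, KRT7, the keratin that marks simple epithelia, had a longer form at 68.9, 69.8 and 69.7% in DMSO, 49.8, 56.3 and 58.2% in GSK591, 81.2, 71.7 and 74.8% in MS023, and 41, 44.5 and 45% in co-treatment. Co-treatment lay below all other libraries (-17.7 ± 4 points, adjusted p = 0.00899, 0.0991 in the stricter fit, and 0.214 without the first MS023 library). JTB and CCDC74A were higher than the sum by 30.9 ± 8.84 and 17.5 ± 4.41 points (adjusted p = 0.0276 and 0.0452), and SORBS3 and EEF1D lower, at -17.8 ± 5.98 and -15.6 ± 6.8 points (adjusted p = 0.0262 and 0.021). None of these 4 was called in the stricter fit (adjusted p from 0.199 to 0.291), and they kept their calls in 4 to 6 of 12 fits without 1 library. The highest adjusted p was 0.228 for JTB without the third DMSO library, 0.209 for CCDC74A without the first co-treatment library, 0.295 for SORBS3 without the second GSK591 library and 0.641 for EEF1D without the first co-treatment library.

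SNHG5 and SNHG1 are noncoding genes whose introns hold small nucleolar RNAs. In SNHG5, an A5SS and an MXE event share an exon and both were lower than the sum. The A5SS stood at 95.5, 96.4 and 94.5% in DMSO, 77.3, 76.5 and 79.8% in GSK591, 92.6, 91.8 and 92% in MS023, and 54, 54.5 and 51.2% in co-treatment, with an interaction of -21.3 ± 1.53 points and -0.76 ± 0.17 in log2 odds (adjusted p = 0.00778). On the Ψ scale this is large beside its SE, and on the odds scale it was not called in the stricter fit (adjusted p = 0.165) or without the first or the third DMSO library (adjusted p = 0.0513 and 0.352). The MXE event stood at 90.8 ± 1.08% in DMSO, 78.5 ± 3.01% in GSK591, 88.1 ± 0.54% in MS023 and 58.3 ± 0.53% in co-treatment (-17.6 ± 1.9 points, adjusted p = 0.00218, and 0.0403 in the stricter fit). In another MXE event of SNHG5 the same 81 nt are the later exon of the pair, and its interaction was 0.91 ± 0.13 in log2 odds (adjusted p = 0.000434). In SNHG1 the first exon of the pair rose from 36.7, 39.8 and 31.1% in DMSO to 78.1, 78.5 and 78.7% in GSK591 and 94.8, 92.1 and 93.1% in co-treatment, with 39.5, 42.2 and 37.5% in MS023. MS023 alone did not pass the test (adjusted p = 0.707), and the interaction was 1.70 ± 0.28 in log2 odds (11 ± 3 points, adjusted p = 0.00237). The other exon of that pair was also called as an SE, lower than the sum (-1.62 ± 0.23 in log2 odds, adjusted p = 4.3e-08). These further events of SNHG5 and SNHG1 were chosen after their values were seen.

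Of the other MXE events, ABCC1, the drug efflux pump MRP1, had a first exon at 53.9, 54.9 and 52.5% in DMSO, 60.6, 62.6 and 63% in GSK591, 61.8, 60.2 and 62.5% in MS023, and 58.8, 58.7 and 61% in co-treatment. GSK591 alone raised it by 8.29 points, MS023 alone by 7.76 points, and the co-treatment mean lay between DMSO and either (-10.3 ± 1.43 points, adjusted p = 0.0119). ANAPC16, a subunit of the anaphase-promoting complex, had an interaction of -13.8 ± 2.55 points (adjusted p = 0.0247), with co-treatment at 31.1 ± 1.77% and the other groups at 40.1 to 44.9% on average. It kept its call in 6 of 12 fits without 1 library (highest adjusted p 0.107, without the first co-treatment library). CDK5RAP2, a centrosomal protein, and BCAT2, which breaks down branched-chain amino acids, were higher than the sum by 22.4 ± 5.25 and 9.58 ± 1.9 points (adjusted p = 0.0381 and 0.0484). Neither was called in the stricter fit (adjusted p = 0.108 and 0.0818), and they kept their calls in 3 and 2 of 12 fits without 1 library. The highest adjusted p was 0.141 for CDK5RAP2, without the first co-treatment library, and 0.133 for BCAT2, without the first or the third MS023 library.

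**Figure D3:**
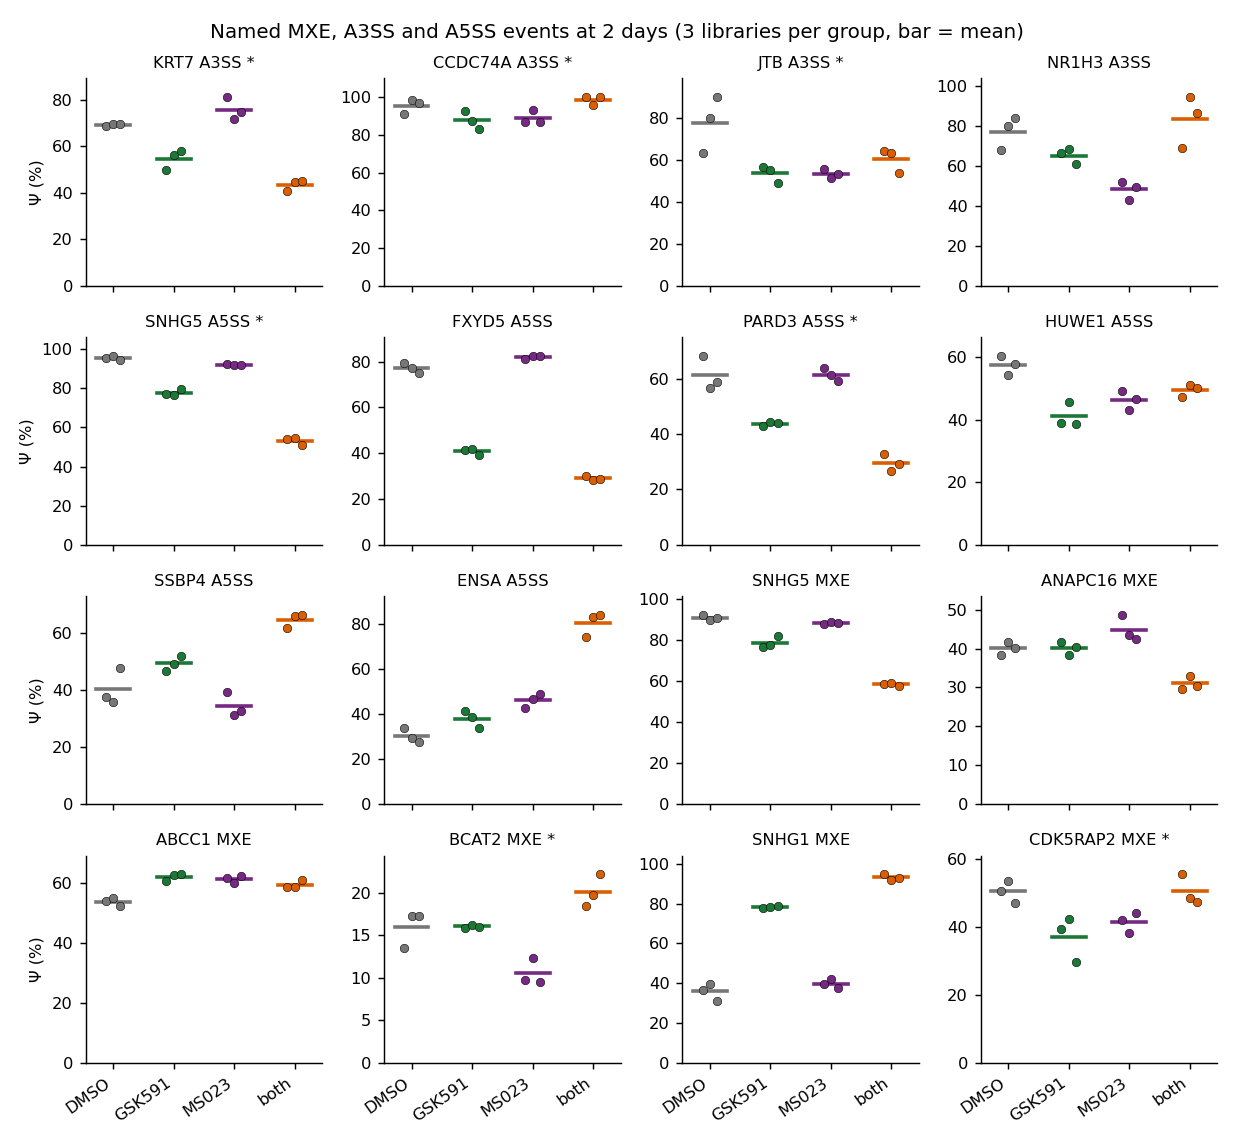
Ψ (%, linear axis from 0, scaled per panel) of 16 named A3SS, A5SS and MXE events, per library (points, 3 per group) with the group mean (bar). An asterisk marks events not called in the stricter fit. In FXYD5 and SNHG1 the MS023 libraries lie near DMSO and the co-treatment libraries beyond GSK591, and in ENSA co-treatment lies at 74.4 to 83.9% against 27.3 to 49% elsewhere.

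The genes that the study follows by name were also read, each by its tested event with the most reads. For GAS5, ANKZF1, NOP2, HNRNPH1, CHTOP and SNRPB these 6 events were not called (adjusted p from 0.705 to 0.931). All but that of HNRNPH1 lie near full inclusion, where few reads remain to measure skipping, and the SE of the interaction was 0.78 to 3.91 on the log2 odds scale. Such an SE leaves room for large departures. Other, less covered events of GAS5, HNRNPH1 and SNRPB were among the 286, an A5SS of GAS5 with 0.68 ± 0.14 in log2 odds (adjusted p = 0.00169), named after its values were seen, among them. The MXE event of HNRNPH1 was measured more closely, at 48.8 ± 3.42% in DMSO, 49.3 ± 4.21% in GSK591, 52.5 ± 0.91% in MS023 and 55.8 ± 0.75% in co-treatment, with an interaction of 0.15 ± 0.13.

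The form of the called cassette exons is given as a description, without a test. The 223 called SE events hold 218 distinct exons. Their median length was 108 nt, against 119 nt over all 46422 tested exons and 116 nt over the 6547 with a DMSO Ψ of 10 to 90%. Exons lower than the sum were short, with a median of 75 nt, and 60.7% had a length that is a multiple of 3, against 41.6% of all tested and 45.2% of those of intermediate Ψ. Exons higher than the sum had a median of 150 nt, and 20.4% were over 300 nt, against 4.89% of all tested. The introns around called exons were short, at a median of 1196 nt upstream and 1278 nt downstream, against 2128 and 1973 nt for all tested. The last exon base was G in 72.9% of called and 79.6% of tested exons, and the third intron base was A in 52.3% and 59.9%. An AG before and a GT after the exon were found for 98.4% of tested exons in GRCh37. The called events had a median DMSO Ψ of 63.5% and more reads, so these shares also carry what makes an event easy to call.

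The same interaction was read at 4 days, with the same DMSO libraries. In the 74388 events tested at both times, 283 were called at 2 days and 967 (1.3%) at 4 days. The DMSO libraries cancel in the difference between the times, which was tested directly over 18 libraries and was called in 60 of 74555 events (0.0805%). Of the 283 called at 2 days, 16 were among them. The count of 60 became 18 in the stricter fit and 0 with equal-weight limma on log2 odds. Neither fit of the difference is given here for single events. SNRNP70 was lower at 4 days, with -2.27 ± 0.07 in log2 odds against -1.45 ± 0.07 at 2 days (difference 0.82 ± 0.09, adjusted p = 1.28e-15). HNRNPA2B1 went from -0.80 ± 0.05 to -1.15 ± 0.06 (difference 0.35 ± 0.07, adjusted p = 0.000898). SEMA4F was called at 2 days but stood at -0.21 ± 0.57 at 4 days (difference -3.90 ± 0.95, adjusted p = 0.0488). For the other named events the difference was not called, with values at 4 days such as 2.46 ± 0.35 for LPIN1 against 2.81 ± 0.32, 2.43 ± 0.26 for PARP6 against 1.95 ± 0.29, and -0.95 ± 0.41 for MSI2 against -2.20 ± 0.46.

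**Figure D4:**
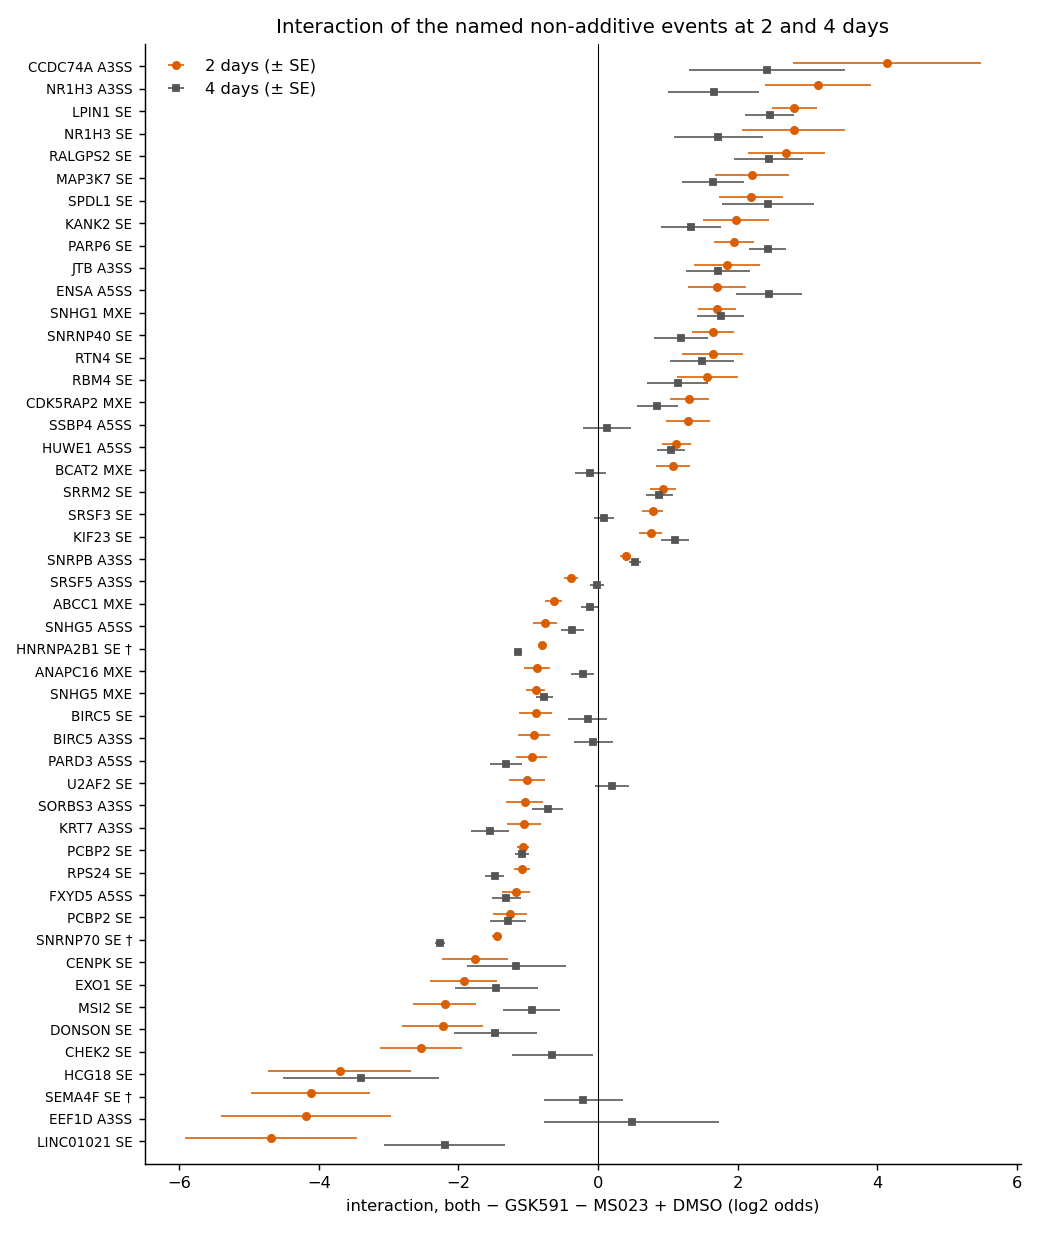
Interaction on the log2 odds scale (± SE) at 2 days (orange circles) and 4 days (grey squares) for the 49 named called events, ordered by the 2-day value, where 0 means that the effects add. A dagger marks the 3 events whose difference between the times was called with the moderated dispersion: SNRNP70 and HNRNPA2B1, further from 0 at 4 days, and SEMA4F, near 0 at 4 days.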

How the data were processed

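RNA from 12 A549 samples was sequenced by the authors. Per the labels and methods, reads were trimmed with Trim Galore (0.6.5 in the submitters' processing notes), aligned to hg19 with STAR (2.4.2a there) and counted over splicing events with rMATS, whose release differs between the sources. The deposited tables give, per event, whole-number counts of inclusion and skipping reads on junctions and exons, with the 3 libraries of a group joined in 1 cell. Columns of the authors' own comparisons (p-values, FDR and inclusion differences) were not used, and 0 per-sample columns were left unused. Library numbers in the text are positions in these cells.

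The 3 tables were joined on event type and coordinates (Python 3.11.15, pandas 2.3.3). Events with at least 10 reads in every library were tested by a quasi-binomial likelihood ratio F test of the interaction, whose dispersion was never below 1 and was moderated for each event type (R 4.3.3, limma 3.58.1). P-values were adjusted over all events by Benjamini-Hochberg. A value of 0.5 was added to group sums for log2 odds. Effective lengths and library size cancel in the interaction. The test was also run on simulated counts that had the same spread for every event. That run cannot show how the test handles events that differ in spread, so it lends the calls no support there. The 2-day and 4-day interactions were compared by a Wald F test over 18 libraries. Single effects used the same model, with the moderated dispersion only.

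Named were, among called events with the same sign on both scales and at least 20 reads in every library, 1 per gene, the 6 highest and 6 lowest SE and the 3 highest and 3 lowest MXE, A3SS and A5SS by Ψ interaction, up to 3 called events of each gene list, and the most-read event of 6 genes that the study names. The members and lists were chosen with earlier results of these data known. Sequences are from GRCh37. The alternatives tried are given in the closing section.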

Additional observations from a re-analysis of the deposited data

Results flagged for a closer look

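The interaction differed between 2 and 4 days by a direct test in 3 of the named events (Wald F test over 18 libraries with limma moderation, adjusted over 74555 events). For the SEMA4F cassette exon the 2-day value minus the 4-day value was -3.90 ± 0.95 on the log2 odds scale (adjusted p = 0.0488), close to the threshold. For the HNRNPA2B1 exon it was 0.35 ± 0.07 (adjusted p = 0.000898), and for the SNRNP70 exon 0.82 ± 0.09 (adjusted p = 1.28e-15). Single outlying libraries were not tested for in these groups of 3. Whether these differences stay called in the stricter fit, which called 18 events in place of 60, is not given here.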

How the results depend on the processing

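The 286 calls, 153 higher and 133 lower than the sum, depended most on the model of the spread between libraries. Equal-weight limma on log2 odds called 0 in all, 0 higher, 0 lower, and 0 SE, MXE, A3SS and A5SS, with 5063 events at an unadjusted p under 0.05. Limma on Ψ called 161, with 46 higher, and 141 SE, 6 MXE, 5 A3SS and 9 A5SS. Only 51 of these 161 were among the 286. Of the alternatives added after seeing the data, limma with precision weights called 65 (32 higher, 33 lower; 49 SE, 9 MXE, 2 A3SS, 5 A5SS), and each event's own dispersion where larger called 130 (73 higher, 57 lower; 104 SE, 10 MXE, 5 A3SS, 11 A5SS). Robust moderation of the dispersion, also added then, called 247. Adjustment within each event type called 296, with 11 MXE. A minimum of 20 reads in every library called 283, and a minimum of 1 read called 283. Without the floor of the dispersion 286 were called, and with the dispersion moderated to a trend on reads 243. Without 1 library the calls ranged from 217 to 307, the higher ones from 112 to 166, the lower from 88 to 141, SE from 171 to 222, MXE from 11 to 38, A3SS from 16 to 22 and A5SS from 14 to 28. The cause of these changes was not tested. The 60 calls for the difference between 2 and 4 days became 0 with limma on log2 odds (4331 at an unadjusted p under 0.05) and 18 with own dispersion where larger. Without 1 library they ranged from 42 to 131, the highest without the third GSK591 library of 2 days. Of the 49 named called events, 26 kept their call with own dispersion and 13 with weighted limma. With limma on Ψ 13 kept it, and with equal-weight limma on log2 odds 0 did. In all 12 fits without 1 library 16 kept their call, and 49 kept their direction in those fits. Among uncalled events the sign turned for ANKZF1 A3SS (0.1457 without the second co-treatment library, with a range of -3.371 to 0.1457 over fits without 1 library) and SNRPB SE (-6.841e-05 with limma on Ψ as a fraction, -0.3821 without the first GSK591 library, -1.495 without the third MS023 library, with a range of -1.495 to 4.415). No paired analysis was possible because the table columns carry no replicate numbers. A planned count model with inclusion and skipping reads as 24 columns was not run. Depth limits exons near full or no inclusion, where few reads measure one form.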
